A study of Mus musculus with 2 samples.

Results

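The mitochondrial genome of the mouse carries 37 genes, and all 37 were among the 43346 genes of the deposited tables. They were chosen by name alone, as every gene whose symbol starts with mt-. There were 13 mRNA genes, 2 ribosomal RNA (rRNA) genes and 22 transfer RNA (tRNA) genes. Beside them stood the annotated pseudogenes Gm29216 and Gm28437, nuclear copies of mitochondrial sequence, and the other copies that sequence alignment placed with them. The samples were 2 libraries of 1 group, C57BL/6J central nervous system at embryonic day 18, from littermates of both sexes pooled. RNA longer than 200 nt was depleted of rRNA, selected for poly-A tails and sequenced on the Illumina HiSeq as strand-specific pairs of 101 nt reads. The labels call them biological replicates 1 and 2, from separate tissue samples, and give no number of embryos, so the spread between them may be partly technical. With 1 group and no contrast between conditions, no test was possible, and each value is given for both libraries with the mean and standard deviation (SD, n = 2).

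The mitochondrial chromosome is a small circle transcribed as long precursors from both of its strands. Its tRNA genes sit between most of the others. Cutting the precursors at the tRNAs frees the rRNAs and most of the mRNAs, which have no introns. No tRNA gene lies between mt-Atp8 and mt-Atp6, mt-Atp6 and mt-Co3, or mt-Nd4l and mt-Nd4. The mRNAs receive short poly-A tails and encode core subunits of the respiratory chain and the ATP synthase, while the 2 rRNAs form the mitochondrial ribosome. Every other protein of these complexes, and all of the enzymes that copy, cut and translate the mitochondrial genome, come from nuclear genes. Stretches of mitochondrial DNA have also been inserted into nuclear chromosomes in evolution, and such copies can hold the same letters as the gene they came from.

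The 37 genes held 1977823 of 93979836 fragments assigned to genes in replicate 1 and 3055205 of 137012773 in replicate 2. This was a share of 2.10% and 2.23% (2.17% ± 0.0886, SD, n = 2), so the share of mitochondrial fragments differed little between libraries of unequal depth. TPM, the level used here, divides each count by the effective length, over which a fragment can start, and scales each library to the same sum. Of all TPM their share was 9.38% and 10.1%. The mRNAs made up 97.2% ± 0.244 (SD, n = 2) of the mitochondrial fragments, and the 2 rRNAs the rest. The 3 cytochrome c oxidase subunits (complex IV) alone held 56.2% and 51.2% of them. The 7 NADH dehydrogenase subunits (complex I) held 19.8% and 22.4%. Cytochrome b, the only subunit of complex III encoded there, held 10.7% and 13.7%, and the 2 ATP synthase subunits (complex V) 10.7% and 9.65%.

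All 22 tRNA genes, of 59 to 75 nt, were listed at 0 fragments in both libraries with an effective length of 0. They are shorter than 1 read and below the size limit of the RNA, so the tables could not measure them and their 0 is not a level. The remaining 15 genes all had fragments in both libraries, from 2769 for mt-Nd4l in replicate 1 to 947667 for mt-Co1 in replicate 2. At that depth, counting error is small beside the difference between the libraries.

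By the deposited TPM, the subunits of complex IV, the last electron carrier complex of the chain, were at the highest levels after mt-Atp8. The catalytic core subunit mt-Co1 (chrM:5328-6872, GRCm38) had a level of 7959 TPM in replicate 1 and of 7796 TPM in replicate 2. Its partner mt-Co3 stood at 7933 and 6423 TPM, and mt-Co2, which takes electrons from cytochrome c, at 6843 and 6310. The 3 therefore lay within a narrow band, and the ranges of mt-Co1 and mt-Co3, and of mt-Co3 and mt-Co2, overlapped between libraries. Among all genes of the table mt-Co1 had rank 4 by TPM in both libraries, and mt-Co2 rank 7 in both.

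The proton channel subunit of the ATP synthase, mt-Atp6, followed at 5946 and 4993 TPM (5470 ± 674). Cytochrome b, mt-Cytb, the core of complex III, stood at 3746 and 4905 TPM (4325 ± 820), its higher library staying below the lower library of mt-Atp6. The ranges of these 2 genes did not overlap with each other or with those of their neighbours in the order. Ranges in this order are those of the 2 library values alone. The deposited credibility bounds of mt-Atp6 were 4977 to 6974 TPM in replicate 1 and 4355 to 6020 in replicate 2. They overlapped the bounds of mt-Co2 in both libraries, 6182 to 6930 and 5749 to 6714 TPM. In replicate 2 they also took in the 4905 TPM of mt-Cytb.

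The 7 complex I subunits, which form the membrane arm of the enzyme, were spread over a wider range and lay below all the others. The highest was mt-Nd1 at 2570 and 2740 TPM (2655 ± 120). It was followed by mt-Nd2 at 1572 and 1808 TPM and by mt-Nd4 at 1543 and 1742 TPM, a pair whose ranges overlapped. Next came mt-Nd5 at 766 and 995 TPM and mt-Nd3 at 753 and 857 TPM, which also overlapped. The lowest were mt-Nd4l at 482 and 672 TPM (577 ± 134) and mt-Nd6 at 287 and 401 TPM (344 ± 80.6). Of the 12 neighbouring pairs in the order of the 13 mRNAs, 4 had overlapping ranges and 8 did not.

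**Figure D1:**
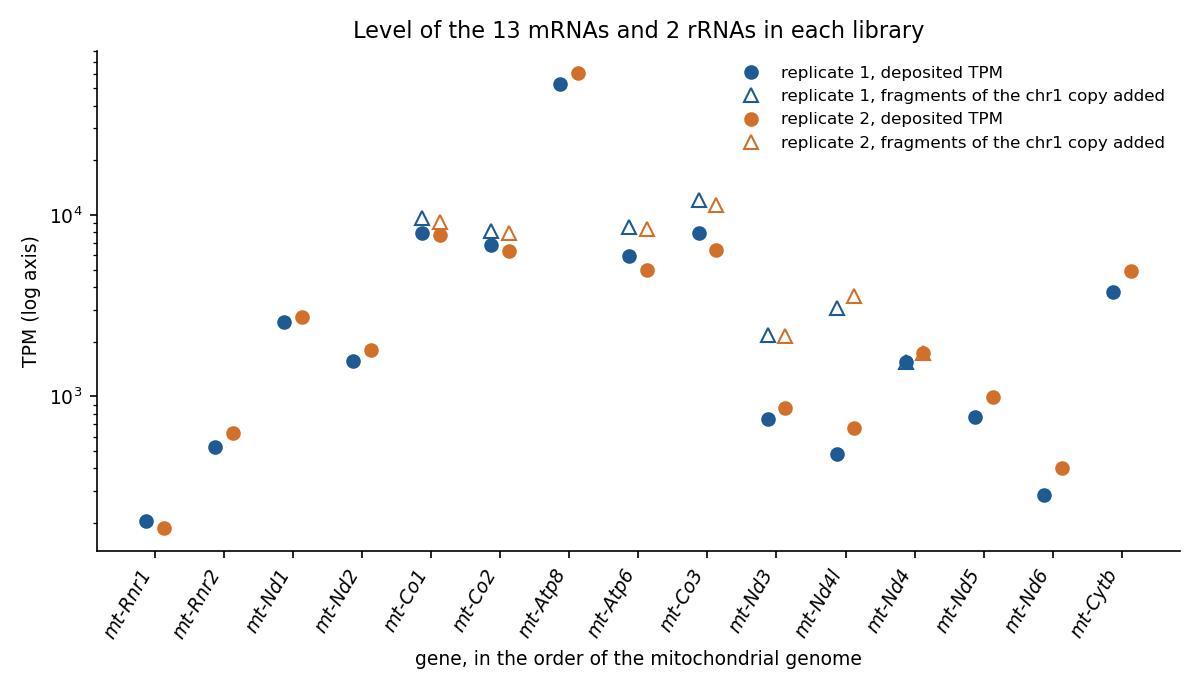
Level in TPM (log axis) of the 13 mRNAs and 2 rRNAs in replicate 1 (blue) and replicate 2 (orange), in the order of the genes on the mitochondrial chromosome. Filled circles are the deposited values and open triangles the level after the fragments of the chromosome 1 copy were added, which raised mt-Nd4l from 482 to 3057 TPM in replicate 1 and left mt-Nd4 almost where it was.

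mt-Nd6 is the only mRNA gene on its strand (chrM:13552-14070, minus strand), with 8 of the tRNA genes. The other 12 mRNAs, both rRNAs and 14 tRNAs lie on the plus strand. Its level over the median of the 12 other mRNAs was −3.46 on the log2 scale in replicate 1 and −3.25 in replicate 2 (mean −3.36 ± 0.15). Its sequence has another composition than theirs. It has 28.1% G and 5.97% C, while G runs from 5.88% to 16.1% and C from 22.1% to 29.97% in the other 12. The last 14 nt of mt-Nd6 and of mt-Nd5 lie over each other on opposite strands (13552 to 13565). Whether fragments were assigned by strand is not given in the sources used here, so mt-Nd6 RNA and RNA of the opposite strand cannot be told apart in these counts.

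The rRNAs were present although the RNA had been depleted of rRNA and selected for poly-A. The large subunit rRNA mt-Rnr2 stood at 526 and 632 TPM (579 ± 74.9), and the small subunit rRNA mt-Rnr1 at 205 and 187 TPM (196 ± 12.6). mt-Rnr2 was higher than mt-Rnr1 in both libraries, by 1.36 and 1.76 on the log2 scale (1.56 ± 0.28). mt-Rnr1 was below every mRNA in both libraries. mt-Rnr2 was above mt-Nd6, overlapped mt-Nd4l in range and was below the other 11. What depletion and selection removed cannot be read from these tables, so these values describe the libraries and not the tissue.

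mt-Atp8, the smallest mRNA gene, which encodes a short membrane subunit of the ATP synthase, was the highest entry of all genes in both libraries, at 52663 and 60186 TPM (56425 ± 5320). It made up 56.6% and 60.3% of the TPM of the 13 mRNAs on 2.18% and 2.60% of their fragments. The gap between these shares lies in the length correction. The gene is 204 nt long and its deposited effective length was 13.3 and 14.2 nt, while the mean fragment length implied by the tables was 202 and 199 nt. Relative to mt-Atp6 its TPM was higher by 3.15 and 3.59 on the log2 scale. With each count divided by the annotated length, the same difference was −0.28 and 0.24, on both sides of 0. mt-Atp8 and mt-Atp6 also share 43 nt (chrM:7927-7969), the end of the first reading frame and the start of the second. This stretch is shorter than 1 read, and the deposited posterior SD of the mt-Atp8 count was 0 in both libraries. The sequence across that overlap is shown because both genes are read from it, with the shared letters in capitals and 15 nt on either side (chrM:7912-7984, plus strand, GENCODE M21 transcripts on GRCm38), followed by the 7 nt that mt-Nd4l and mt-Nd4 share (chrM:10152-10188 in all).
mt-Atp8 into mt-Atp6: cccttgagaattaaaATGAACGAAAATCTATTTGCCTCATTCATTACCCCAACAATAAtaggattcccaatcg
mt-Nd4l into mt-Nd4: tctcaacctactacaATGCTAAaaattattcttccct
In both, the capitals open with the ATG start codon of the second gene and close with the TAA stop codon of the first. No tRNA gene separates the genes of either pair. Whether the levels of a pair come from separate RNAs or a shared RNA was not tested. Without mt-Atp8 the other 12 mRNAs held 4.04% and 3.96% of all TPM. mt-Nd4l and mt-Nd3 are the next shortest, and their effective lengths were also far below their lengths.

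**Figure D2:**
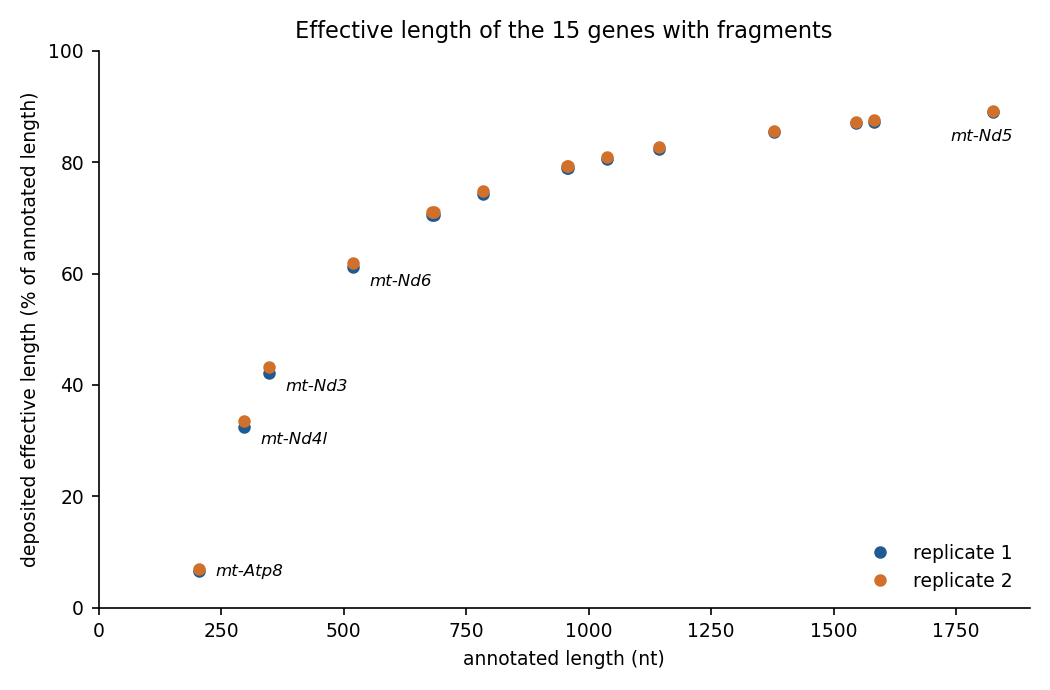
Deposited effective length as a percentage of annotated length (vertical axis) against annotated length in nt (horizontal axis) for the 15 mitochondrial genes with fragments, in replicate 1 (blue) and replicate 2 (orange). mt-Atp8, of 204 nt, lies far below the rest with an effective length of 13.3 and 14.2 nt, and the points rise towards mt-Nd5, of 1824 nt.

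The ends of the mRNA genes show how closely they are packed. Of the 13, 10 end on a complete stop codon, and mt-Co3, mt-Nd4 and mt-Cytb end on a single T. As background, the poly-A tail completes such a codon after the RNA is cut. The last 20 nt of these 3 and, for comparison, of mt-Co1 are shown with the stop letters in capitals (RNA sense, GENCODE M21).
mt-Co3: catttattgatgaggatctT
mt-Nd4: aattacaggcctgacaataT
mt-Cytb: aatactaaaattatatccaT
mt-Co1: cctatgtaaaagtaaaaTAA
9 mRNAs open with ATG, while mt-Nd1 opens with GTG, mt-Nd2 with ATA, mt-Nd3 with ATT and mt-Nd5 with ATC. These ends did not sort the genes by level, as mt-Co3 was among the highest and mt-Nd4 in the lower part of the order.

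7 of the 13 mRNAs have an annotated copy in 1 block on chromosome 1 (chr1:24611535-24616197, minus strand, GRCm38), each an unprocessed pseudogene. From the outer end of the block the copies are Gm29216 for mt-Co1, Gm28661 for mt-Co2, Gm10925 for mt-Atp6, Gm28437 for mt-Co3, Gm28438 for mt-Nd3, Gm10222 for mt-Nd4l and Gm28439 for mt-Nd4. Over 4140 aligned nt they held 2 mismatches in all, and 5 of the 7 held none. Gm29216 matches the last 483 nt of mt-Co1 and Gm28439 the first 876 nt of mt-Nd4, and the other copies are nearly whole. They keep the order and spacing of the mitochondrial stretch chrM:6390-11042, 5 of the 7 exactly and the 2 at the mt-Nd4 end 1 nt off. That stretch also holds mt-Atp8 and 5 tRNA genes. The gap between Gm28661 and Gm10925 is 233 nt, the same as the gap on the mitochondrial chromosome in which mt-Atp8 begins, but no annotated copy of mt-Atp8 lies there.

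The sequences where gene and copy differ are shown because only these letters mark the origin of a read that lies inside a match. A read that reaches past a match can differ in other letters, as at the unaligned start of Gm29216 below. Positions count from 1 at the 5′ end of the mitochondrial gene, with the mitochondrial letter first and the letter of the copy last. The change in mt-Nd3 is T3C (chrM:9461), the third letter of its start codon, in capitals below in the first 23 nt of both.
mt-Nd3: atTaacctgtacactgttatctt
Gm28438: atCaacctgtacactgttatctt
The change in mt-Co1 is A1066T (chrM:6393). It is nucleotide 4 of the match to Gm29216, whose first 40 nt are shown with the aligned part in capitals, beside the same stretch of mt-Co1.
mt-Co1: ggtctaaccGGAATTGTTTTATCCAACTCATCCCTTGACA
Gm29216: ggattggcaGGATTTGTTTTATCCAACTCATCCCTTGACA
For mt-Co3 and Gm28437 no letter differs over 783 nt, so a fragment that lies inside both carries no mark of its origin. Their first 30 nt stand for the whole match.
mt-Co3: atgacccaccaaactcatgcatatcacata
Gm28437: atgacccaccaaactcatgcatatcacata

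The deposited tables divided the fragments of each such pair between the gene and its copy, and the share given to the copy differed widely from pair to pair. Gm10222 held 84.2% of the fragments of mt-Nd4l and itself in replicate 1 and 81.1% in replicate 2. Gm28438 held 65.6% and 60.2% of those of mt-Nd3 and itself. A further 4 copies held less. Gm28437 held 33.9% and 43.4% beside mt-Co3, Gm10925 31.0% and 40.6% beside mt-Atp6, Gm28661 15.7% and 20.5% beside mt-Co2, and Gm29216 16.9% and 14.9% beside mt-Co1. Gm28439, identical to the first 876 nt of mt-Nd4, held 0.0485% and 0.0778%. Thus 6 of the 7 copies held from 14.9% to 84.2% of the fragments of their pair, and 1 held almost none.

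The block held 411975 and 690190 fragments, or 17.2% and 18.4% of all fragments of mitochondrial genes and copies. The 2 copies Gm29216 and Gm28437 alone held 12.1% and 12.2%. The tables also give a posterior SD of each count, the authors' measure of how firmly the fragments could be assigned. It was above 1 fragment in both libraries for the 7 genes with a copy and below 0.1 for the other 8. As a percentage of the posterior mean count it was 19.0% and 19.96% for mt-Co3, 11.3% and 10.5% for mt-Atp6, 11.7% and 6.89% for mt-Nd4l, 8.82% and 5.31% for mt-Nd3, and 3.28% and 4.51% for mt-Co2. For mt-Co1, with 483 of its 1545 nt in the match, it was 0.064% and 0.0537%. For mt-Nd4, with 876 of its 1378 nt in the match, it was 0.0103% and 0.0111%. The levels of mt-Co3, mt-Atp6, mt-Nd3, mt-Nd4l and mt-Co2 given above are therefore uncertain by more than their counting error.

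**Figure D3:**
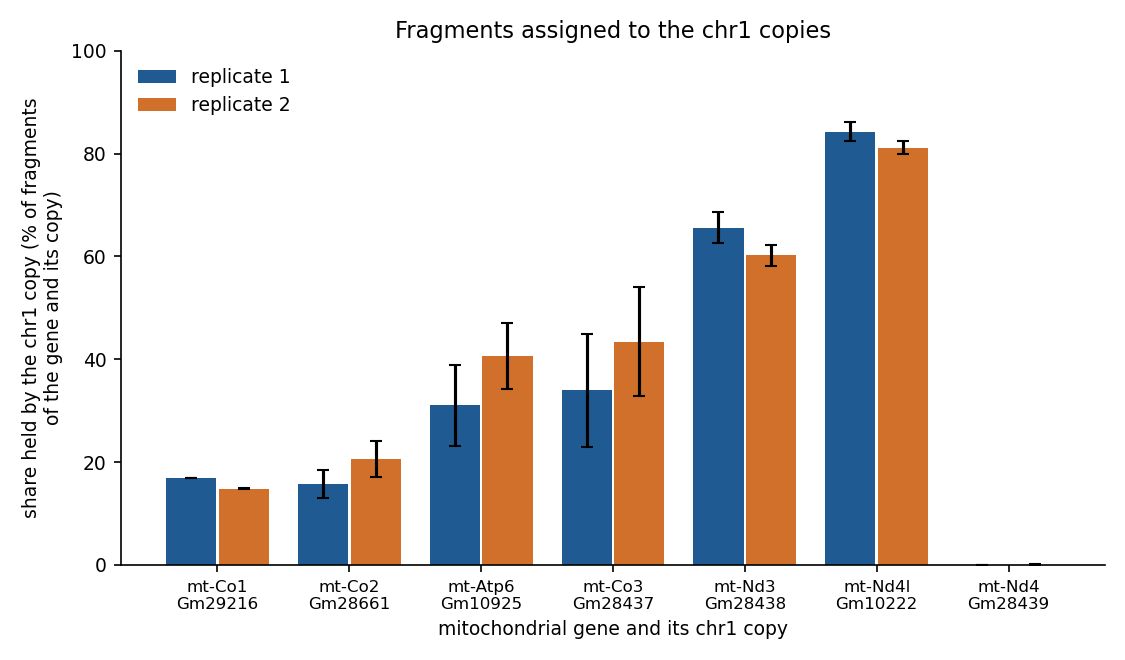
Share of the fragments of each pair that the tables gave to the chromosome 1 copy (percent, bars from 0), in replicate 1 (blue) and replicate 2 (orange). Error bars are the deposited posterior SD of the copy's count, as a percentage of the pair. Gm10222, the copy of mt-Nd4l, held the highest share at 84.2% and 81.1%, and Gm28439, the copy of mt-Nd4, lies on the axis.

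With the fragments of each copy added to its gene, mt-Co3 stood at 12010 and 11344 TPM, mt-Co1 at 9575 and 9157, mt-Atp6 at 8620 and 8413 and mt-Co2 at 8122 and 7943. mt-Co3 then lay above mt-Co1 in both libraries, which the deposited levels did not show. mt-Nd4l rose to 3057 and 3562 TPM, from below mt-Nd5 to above mt-Nd1, and mt-Nd3 to 2188 and 2155. mt-Nd4 was 1544 and 1743 TPM, the same as before within 2 TPM. mt-Atp6 then lay above mt-Co2 in both libraries, the reverse of the deposited order. The order of levels therefore depended on how the fragments of the copies were treated. This held among the complex I subunits and among mt-Co1, mt-Co2, mt-Co3 and mt-Atp6. Which of the fragments came from nuclear RNA was not tested.

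Alignment of the 37 genes to all annotated transcripts found 8 further pseudogenes outside chromosome 1 with at least 90% identity over at least 200 nt. These limits, and the examples named here, were chosen after the values had been seen. Gm13341 on chromosome 2, with 95.9% identity to mt-Co2, had 183 and 293 fragments. Gm13340, also on chromosome 2, with 97.6% identity over all 1545 nt of mt-Co1, had 7.01 and 18.0. 5 of the 8 were listed at 0 in both libraries, among them Gm11408, the copy of mt-Nd6 on chromosome 4 with 93.6% identity. So the less alike copies held few fragments or none, while those of the chromosome 1 block, with at most 1 mismatch each, held 12582 or more in each library, except Gm28439.

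Between the libraries no mitochondrial gene differed by as much as 2-fold (0 of 15), where 2.91% of 15281 genes at a mean of at least 1 TPM and 0.254% of 1573 genes at a mean of at least 100 TPM did. Ratios are of replicate 2 over replicate 1 from TMM-scaled counts, with 1 library on each side. 9 of the 13 mRNAs were higher in replicate 2, where 48.6% of all genes at 1 TPM or more and 39% of those at 100 TPM or more were, but only 4 of the 13 were higher when the libraries were scaled by their spike-in RNA. Their median log2 ratio was 0.21, or −0.17 under spike-in scaling, which moved the median of all genes by −0.38.

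The 6 mRNAs without a chromosome 1 copy were all higher in replicate 2 under TMM scaling, with a median log2 ratio of 0.34. They were mt-Nd1 at 0.10, mt-Nd2 at 0.21, mt-Atp8 at 0.29, mt-Nd5 at 0.38, mt-Cytb at 0.40 and mt-Nd6 at 0.50. Under spike-in scaling mt-Nd6, mt-Cytb and mt-Nd5 were at 0.12, 0.02 and 0.00, and the other 3 were below 0. The 7 with a copy had a median of −0.02 and ran from −0.29 for mt-Co3 to 0.53 for mt-Nd4l. With the copies' fragments added, that range narrowed to between −0.07 and 0.27, its median remaining at −0.02. mt-Co3 moved from −0.29 to −0.07, mt-Atp6 from −0.24 to −0.02, mt-Nd3 from 0.23 to 0.02 and mt-Nd4l from 0.53 to 0.27. For these first 3 genes the copy lay on the other side of 0. The log2 ratios were 0.29 for Gm28437, 0.37 for Gm10925 and −0.11 for Gm28438, all of which spike-in scaling shifts by −0.38. They rest on a loose split, as Gm28437 had a posterior SD of 45641 on 141695 and of 63569 on 260338 fragments. From posterior mean counts, the copy's share of its pair was 42.4% and 46.9% for Gm28437. It was 30.6% and 38.7% for Gm10925, and 65.1% and 60.4% for Gm28438. Of the 2 rRNAs, mt-Rnr2 was at 0.27 and mt-Rnr1 at −0.12, so they moved apart, and under spike-in scaling both were below 0, at −0.11 and −0.50.

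**Figure D4:**
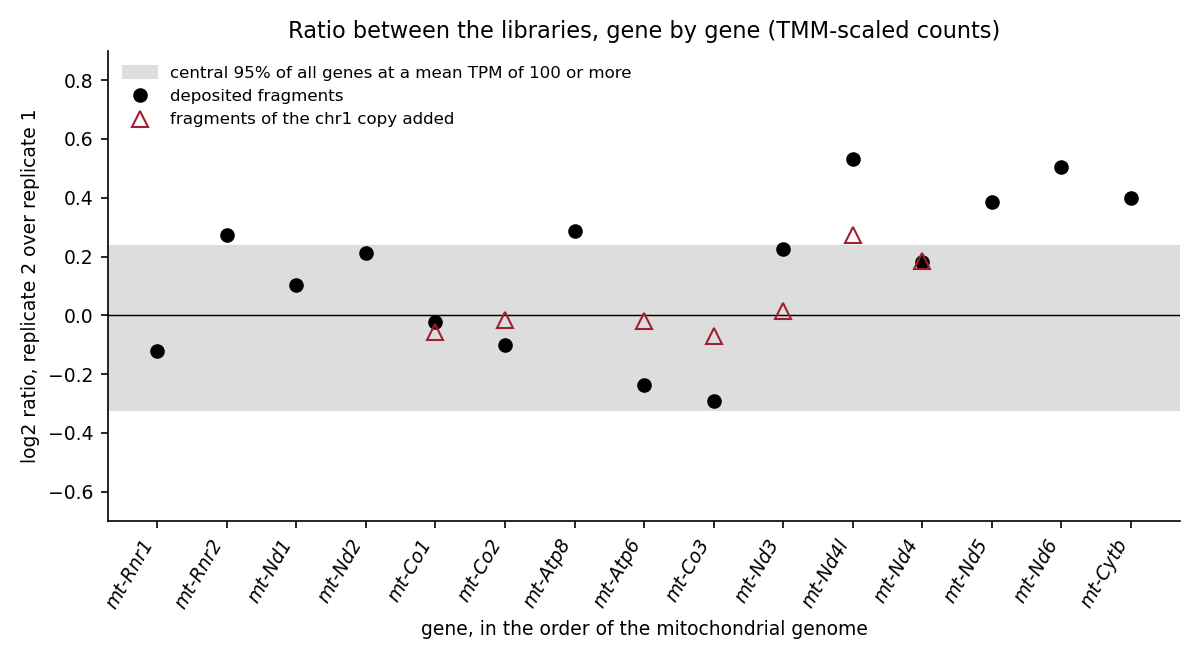
Log2 ratio of replicate 2 over replicate 1 (vertical axis) for the 15 genes in the order of the mitochondrial chromosome. Black circles are the deposited fragments, open triangles the same with the chromosome 1 copy's fragments added, and the grey band spans the central 95% of genes at 100 TPM or more (−0.32 to 0.23). The genes from mt-Nd5 to mt-Cytb lie above the band at 0.38 to 0.50, while the triangles of mt-Co1, mt-Co2, mt-Atp6, mt-Co3 and mt-Nd3 lie between −0.07 and 0.02. mt-Atp8 has no copy and lies at 0.29, and spike-in scaling lowers all points by the same amount.

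The central 95% of all genes at 100 TPM or more lay between −0.32 and 0.23, so mt-Nd5, mt-Cytb, mt-Nd6, mt-Nd4l, mt-Atp8 and mt-Rnr2 lay outside it and the other 9 genes inside. Over the 12 mRNAs of the plus strand, the log2 ratio and the position of the gene had a Pearson r of 0.41 and a Spearman rho of 0.52. These 12 points share the same 2 libraries and, in part, overlapping transcripts, so this is a description only. The mRNAs have a GC content of 31.9% to 41.1%, against a median of 49.9% for 15153 nuclear genes at 1 TPM or more. The 1378 nuclear genes in the GC range of the mRNAs had a median log2 ratio of 0.05, and 66.8% of them were higher in replicate 2. The part of base composition in the mitochondrial ratios was not tested beyond these values.

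The libraries also differed in the RNA level of some tissue markers, taken from lists chosen with earlier results of these data known. All 9 markers of the central nervous system were at 1 TPM or more in both libraries, with summed levels of 6417 and 6229 TPM. The 6 skeletal muscle markers summed to 13.6 TPM in replicate 1 and 557 in replicate 2. All 6 were more than 2-fold higher in replicate 2, beside 2.91% of all genes at 1 TPM or more past 2-fold in either direction. None of the 6 markers was at 0, with Ckm at 0.23 and 94.4 TPM. Of the 4 choroid plexus markers, Ttr stood at 427 and 1389 TPM and made up nearly all of their sum of 434 and 1409 TPM. 2 of the 4, Ttr and Folr1, were past 2-fold, beside the same 2.91% of all genes. Clic6 was at 2.03 and 3.87 TPM and Kl at 0.46 and 0.43 TPM. The 5 red blood cell markers summed to 2999 and 2255 TPM, and the 4 heart markers to 3.92 and 4.48 TPM. The part of these tissues in the mitochondrial ratios was not tested. In bulk RNA, more cells of a type and more RNA per cell cannot be told apart.

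Nuclear genes that copy and process the mitochondrial genome were detected throughout. Of 43 listed genes 42 were found, all of them at 1 TPM or more in both libraries, with a median of 15.8 and 17.4 TPM. None of the 42 differed by 2-fold and 24 were higher in replicate 2, with a median log2 ratio of 0.03, beside 2.91% and 48.6% of all genes at 1 TPM or more, so these counts are near the overall shares. The highest were Fastk, founder of a family of mitochondrial RNA-binding proteins, at 121 and 124 TPM, the termination factor relative Mterf3 at 72.1 and 79.7, Slirp at 66.1 and 70.9 and Tbrg4, another member of the Fastk family, at 59.6 and 56.7. The lowest was Mterf1b at 3.21 and 3.77 TPM. The mitochondrial RNA polymerase Polrmt stood at 46.6 and 41.7 TPM and Tfam, which packages the genome and starts transcription, at 18.8 and 20.1. Lrpprc, which with Slirp stabilises the mRNAs, stood at 23.9 in both libraries and the poly-A polymerase Mtpap at 13.2 and 13.97.

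Nuclear subunits of the same complexes were below most of their mitochondrial partners. Of 10 listed, Atp5b, the catalytic subunit of the ATP synthase, was highest at 1136 and 1145 TPM, and Ndufs1 of complex I was lowest at 74.9 and 82.4 TPM. Their median was 374 and 363 TPM, beside 2570 and 2740 TPM for the 13 mitochondrial mRNAs. 7 of the 10 were higher in replicate 2 and none was past 2-fold, with a median log2 ratio of 0.05, beside the same 48.6% and 2.91% of all genes, and 10 genes are too few to set apart from these. TPM was taken with effective lengths, which are less certain for the short mitochondrial mRNAs.

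An older set of tables on the mm9 build gave a different picture of the same genes. The authors' gene table listed all 37 mitochondrial genes at 0 RPKM in both of its columns. For Gm10222 on chromosome 1 it gave 141 and 176 RPKM, and for a neighbouring gene without a symbol here (ENSMUSG00000090378, chr1:24620814-24621627, mm9) 626 and 649 RPKM. These columns are not tied to a library by name. This table names the mitochondrial chromosome MT, while the contigs and junctions name it M, and the part of that naming in the listed 0 was not tested.

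The authors' contigs, stretches of continuous signal called over both libraries, were not at 0 on the mitochondrial chromosome. They held 8 of 858138 contigs there, 6 on the plus strand and 2 on the minus strand. The scale of their level is not given in the sources used here. A contig over chrM:19-6939 (mm9) had a level of 931, with rank 9 among all contigs, and covered both rRNA genes, mt-Nd1, mt-Nd2 and mt-Co1. A second over chrM:10329-16299 had a level of 622. It covered the greater part of mt-Nd4, all of mt-Nd5 and mt-Cytb, and the mt-Nd6 locus from the opposite strand. Between them, 4 plus-strand contigs had levels of only 0.138 to 0.239. These touch mt-Co2, mt-Atp8, mt-Atp6, mt-Co3, mt-Nd3, mt-Nd4l and the start of mt-Nd4. All of these except mt-Atp8 have an annotated copy in the chromosome 1 block. The borders of the low contigs and of the copied sequence did not coincide throughout. mt-Co1, whose last 483 nt are copied, lay wholly under the contig at 931. mt-Nd4 is copied over its first 876 nt (to chrM:11042), and the contig at 622 covered it from chrM:10329 on. Low and high plus-strand contigs together covered 97.3% of mt-Nd4. Each contig has 1 level for its whole length, so 931 and 622 do not give the signal over the copied parts alone. The part of the copies in the low levels was not tested. On chromosome 1 the 9 contigs around Gm10222 (chr1:24618372-24623031, mm9) had levels of 0.026 to 3.44, far below 931 and 622. The one at 3.44 was on the plus strand, opposite to the copies. The minus-strand contigs, on the strand of the copies, had levels of 0.399, 1.17 and 1.21. These were above the 0.138 to 0.239 of the low plus-strand contigs on the mitochondrial chromosome. No minus-strand contig covered mt-Nd6, which had 5439 and 11627 fragments in the later tables.

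**Figure D5:**
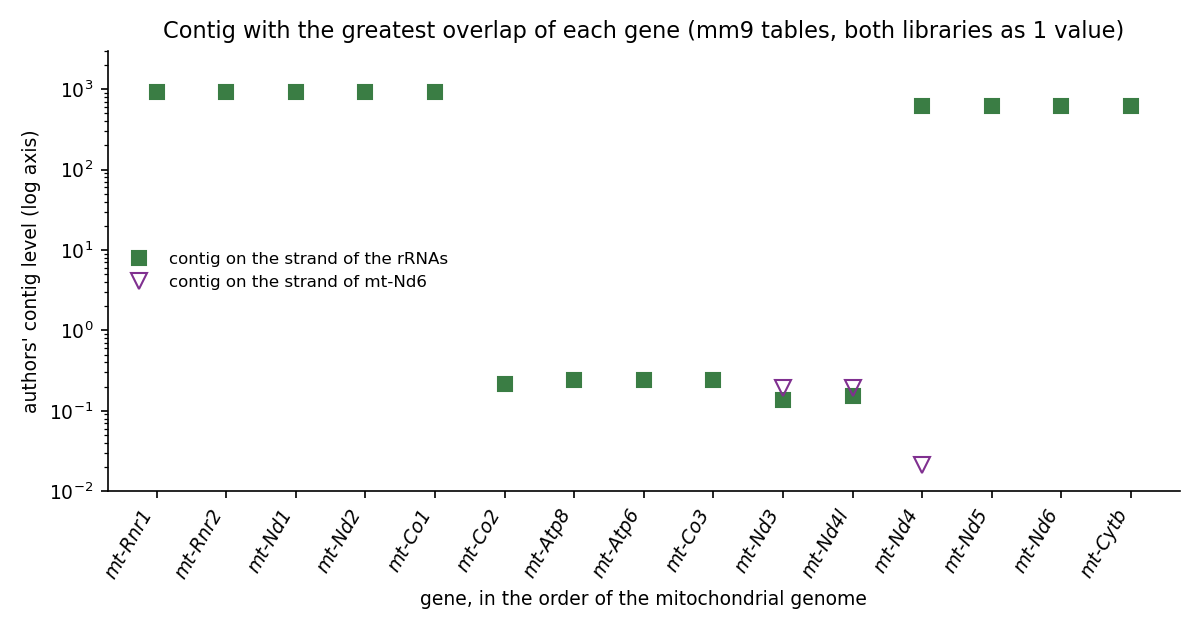
Level of the authors' contig, per strand, that overlaps each gene most (log axis, scale not given) for the 15 genes in the order of the mitochondrial chromosome. Green squares are plus-strand contigs, at 931 from mt-Rnr1 to mt-Co1, at 0.138 to 0.239 from mt-Co2 to mt-Nd4l and at 622 from mt-Nd4 to mt-Cytb, and open triangles minus-strand contigs. mt-Nd6, a minus-strand gene, has a plus-strand contig and no minus-strand one.

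The authors' junction table held 1366 gapped alignments on the mitochondrial chromosome, with 3733 reads in all, although its mRNAs have no introns. Most were single events. Of the 1366, 855 (62.6%) had 1 read, 138 were seen in both replicates, and 53 had an irreproducibility score of at most 0.1. 1150 lay inside 1 mitochondrial gene, and the plus strand held 1195. The leading one, chrM:6458-6518 (mm9) inside mt-Co1, a gap of 61 nt, had 550 reads, 245 and 305 in the 2 replicate columns. Another inside mt-Co1, chrM:6451-6517, had 255 reads, and chrM:14428-14538 inside mt-Cytb had 115. 6 of the 10 leading junctions were inside mt-Co1 and 2 inside mt-Cytb. What made these gaps was not tested.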

How the data were processed

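Poly-A selected RNA of 2 libraries was analysed. The authors' gene tables are on mm10 with GENCODE M4, per the notes deposited with each sample, and give expected counts of fragments, TPM, FPKM (not used) and a posterior SD, with credibility bounds that were treated as a score. No source used here names the aligner or the program that assigned the fragments. The deposited mm9 tables are older. They give RPKM per gene, per the file headers. The authors called contigs over both libraries and deposited a signal for each, on a scale that is not stated. The authors' junctions have read counts, and the deposited irreproducibility score of contigs and junctions is a fraction between 0 and 1. Symbols and transcripts came from GENCODE M21 (GRCm38), and 42462 of 43346 gene IDs matched. The other table entries (spike-ins and numeric names) held 3.62% and 4.01% of all fragments and were left out of the totals.

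Expected counts were rounded and scaled by TMM in edgeR 4.0.16 over the 18677 genes past its filter on low counts, and log2 ratios used a prior count of 1. The step was tested on simulated data for 43346 genes, 200 of them changed, and 98% of the changed genes came out within 0.2 of the log2 ratio put in. The simulated counts varied by counting error alone, and only genes of 100 or more fragments were changed. The simulation therefore checks the calculation, and not the spread between libraries or the assignment of shared fragments. DESeq2 1.42.0 gave alternative size factors. Copies were found with BLAST+ 2.17.0. A level with the copy added used both counts over the effective length of the mitochondrial gene. All 37 genes and every copy at 1 TPM or more were to be named, and from the lists of nuclear genes the highest and lowest and a few regulators. The members and lists were chosen with earlier results of these data known. Differences of 2 libraries have no test, and n = 2 limits every SD.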

Additional observations from a re-analysis of the deposited data

How the results depend on the processing

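The mitochondrial share of fragments, 2.17%, was 2.64% with the nuclear copies added and 9.72% as a share of TPM, and 2.10% to 2.23% with either replicate left out. With 2 libraries, leaving out either one only returns the value of the other. Here and below, such ranges repeat the 2 library values and are no further check. The level of mt-Atp8 over mt-Atp6 (log2 3.37) rested on the effective length. It was −0.020 per annotated length, −1.76 without length correction and 2.72 with the copies added, and 3.15 to 3.59 with either replicate left out. mt-Nd6 against the other mRNAs (−3.36) was −3.69 per annotated length and −4.18 without length correction, and −3.46 to −3.25 with either replicate left out. mt-Rnr2 over mt-Rnr1 (1.56) was 2.43 without length correction, a change set by the lengths of the 2 genes, and 1.36 to 1.76 with either replicate left out. The median ratio of the 13 mRNAs between libraries (0.21) was 0.26 unscaled, 0.19 from TPM, 0.18 with the copies added and −0.17 with spike-in scaling, for which the cause was not tested. In 2 comparisons added after seeing the data it was 0.16 against nuclear genes of like GC (within 2 percentage points) and 0.10 against those of like GC (within 4) and length (within 2-fold, with as few as 4 nuclear genes for 1 mRNA). No mitochondrial gene passed 2-fold under TMM or the 5 other scalings tried. The share held by all copies (17.8%) was 12.1% for Gm29216 and Gm28437 alone and 18.9% from posterior mean counts, and 17.2% to 18.4% with either replicate left out. The remaining alternatives moved these values by less than 1 SD between the libraries or, for the median ratio, by less than its counting error. No paired analysis was possible because the study has 1 group. Limits are the 2 libraries, the unknown use of strand in counting, fragments that gene and copy share, and effective lengths of short genes.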
